A study of Mus musculus with 17 samples.

Results

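Ly6a, Ly6c1 and Ly6c2 encode small surface proteins of the Ly6 family, and their RNA was followed across 17 RNA-seq libraries of mouse CD8 T cells. The genes were chosen by symbol: all 3 were found among the 24594 genes of the deposited count tables, and all 3 were among the 13881 genes that passed a filter on low counts. The cells were labelled CD8+Thy1.1+, Thy1.1 being an allelic form of a T cell surface protein used to track cells, and came from the spleen, and the labels name each group by the gene that was modified. There were 4 Asxl1 KO, 4 Dnmt3a KO and 4 Tet2 KO libraries, and 5 Rosa KO libraries, with Rosa being a locus used as a control target. Asxl1 is a Polycomb-associated chromatin regulator, Dnmt3a a DNA methyltransferase and Tet2 an enzyme that oxidises 5-methylcytosine. The labels used here give no age, further allele, treatment or way of making the knockouts, and do not say whether libraries came from separate animals, so p-values measure the spread between these libraries only.

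Proteins of the Ly6 family fold into a compact domain held together by disulfide bonds and are tied to the outer leaflet of the membrane by a glycosylphosphatidylinositol (GPI) anchor. Ly6A, also called Sca-1, is used to sort hematopoietic stem cells, and T cells raise it on activation and in response to interferon. Ly6C is the joint name for the products of Ly6c1 and Ly6c2. It marks classical monocytes, and on CD8 T cells of C57BL/6 mice it is carried by many memory and effector cells.

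The 3 genes lie close together on chromosome 15 of mm10 (GRCm38.p6), all on the minus strand. Ly6a (NCBI gene 110454) spans 74994877 to 74998031, Ly6c1 (17067) spans 75044018 to 75048920 and Ly6c2 (100041546) spans 75108161 to 75112066. The exons of their protein-coding transcripts cover 1.205, 1.677 and 0.868 kb in GENCODE, and no annotated gene overlaps any of them. The coding sequences of Ly6c1 and Ly6c2 are 396 bases each and differ at 9, an identity of 97.7%, with a longest identical run of 188 bases. Ly6a shares 82% of aligned coding positions with Ly6c1 and 81.7% with Ly6c2. Over the whole transcripts of this Ly6c pair, 42 of 844 aligned columns differ, gaps included, and a read can be assigned by any of them. The first 150 coding bases of the pair are shown because they hold 6 of the 9 coding differences, and capitals mark those bases:

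Ly6c1: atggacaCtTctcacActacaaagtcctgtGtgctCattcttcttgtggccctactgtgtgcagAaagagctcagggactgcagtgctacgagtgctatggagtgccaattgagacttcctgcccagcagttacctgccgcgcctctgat
Ly6c2: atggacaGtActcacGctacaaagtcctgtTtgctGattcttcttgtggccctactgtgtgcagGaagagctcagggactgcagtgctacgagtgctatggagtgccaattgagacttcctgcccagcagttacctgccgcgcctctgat

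Of the distinct 50-base words in the protein-coding transcripts of a gene, 19.0% for Ly6a, 32.8% for Ly6c1 and 31.2% for Ly6c2 also occurred in another gene. With 100-base words these shares were 1.45%, 10.1% and 14.9%. The words shared by Ly6c1 and Ly6c2 were mostly shared with each other, and how the authors' counting treated reads that match several genes is not given in the sources used here. Each Ly6c gene is therefore reported as uncertain on its own, beside the sum of the pair.

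The windows around the transcription starts of the Ly6c pair are shown because 2 of the modified genes act on the methylation of CpG dinucleotides. RefSeq promoter windows of GRCm38.p6, with 250 bases before and 50 after a start, matched 2 of the 3 genes, Ly6c1 and Ly6c2. In the following windows, read on the minus strand, capitals mark CG dinucleotides and matches to TGTGGT, the core bound by RUNX factors, on either strand:

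Ly6c1, chr15:75048788-75049087: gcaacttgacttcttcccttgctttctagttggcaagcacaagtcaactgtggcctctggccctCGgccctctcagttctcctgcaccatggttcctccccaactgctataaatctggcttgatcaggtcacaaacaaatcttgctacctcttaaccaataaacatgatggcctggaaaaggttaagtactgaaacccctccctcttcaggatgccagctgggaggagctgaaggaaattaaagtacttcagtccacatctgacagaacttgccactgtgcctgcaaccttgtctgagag
Ly6c2, chr15:75111922-75112221: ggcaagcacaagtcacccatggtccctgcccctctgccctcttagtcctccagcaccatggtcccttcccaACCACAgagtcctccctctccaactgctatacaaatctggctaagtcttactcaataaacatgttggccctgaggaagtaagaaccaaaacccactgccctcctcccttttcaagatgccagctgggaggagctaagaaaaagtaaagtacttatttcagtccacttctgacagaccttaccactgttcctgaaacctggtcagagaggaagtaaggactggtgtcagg

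The table has 2 overlapping windows for each gene, and the one that starts farther upstream is shown. The Ly6c1 window shown held 1 CpG and its other window 0, and both Ly6c2 windows held 0, against a median of 7 over 32851 promoter windows of the same length, of which 14.1% held 1 or fewer and 5.43% held 0. Both Ly6c2 windows held 1 match to TGTGGT, a motif found in 16.8% of all windows, and the Ly6c1 windows held 0. None of these windows held TTCNNNGAA, the GAS element of STAT factors (8.3% of windows), GAAANNGAA, the core of the interferon-stimulated response element (8.56%), or CACCTG, the E-box bound by Zeb factors (20.2%). These are letter matches in fixed windows and show no binding, and methylation of the windows was not measured in the data used here.

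Total counts per library ran from 6625833 to 40701203, and the 3 genes together were covered well in each, with at least 3878 counts for Ly6a, 3674 for Ly6c2 and 109 for Ly6c1. Asxl1 KO 3 and 4 had counts for 16862 and 17940 genes, against 12901 to 15328 genes in the other libraries. By the library numbers in the labels the libraries fell into 3 runs, which the labels do not call batches. Run 1 held Asxl1 KO 1, Dnmt3a KO 1 and 2 and Rosa KO 1. Run 2 held Asxl1 KO 2, Dnmt3a KO 3 and 4 and Tet2 KO 1 and 2. Run 3 held Asxl1 KO 3 and 4, Tet2 KO 3 and 4 and Rosa KO 2 to 5. T cell identity genes were high in every library, with Cd8a at 641 to 1240 CPM (edgeR CPM, a gene count relative to the TMM-scaled library total) and Cd3e at 1246 to 4966 CPM, while genes of other cells were present as well, with levels given beside the Ly6c2 result. RNA of the modified genes did not check the labels: Asxl1, Dnmt3a and Tet2 had log2 fold changes of −0.13, −0.06 and −0.26 in their own knockouts against Rosa KO, and none passed the test (adjusted p = 0.836, 0.978 and 0.735, edgeR).

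Ly6c2 and Ly6a were among the abundant RNAs of these cells and Ly6c1 was not. By mean CPM, Ly6c2 ranked 177 and Ly6a 206 among the 13881 tested genes, and Ly6c1 ranked 6704. Per kb of exon, the mean level over the 17 libraries was 846 CPM per kb for Ly6c2, 528 CPM per kb for Ly6a and 13.2 CPM per kb for Ly6c1. Since fewer cells that carry a transcript and less of it per cell cannot be told apart in bulk RNA, all levels below are averages over the cells of a library.

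Ly6a was highest in the 2 Tet2 KO libraries of run 3 and low in every library of run 2. It had 708, 289, 949 and 702 CPM in Asxl1 KO 1 to 4 and 488, 641, 285 and 311 CPM in Dnmt3a KO 1 to 4. The values were 511, 398.5, 1406 and 1153 CPM in libraries 1 to 4 of Tet2 KO, against 521, 614, 725, 520.4 and 586 CPM in Rosa KO 1 to 5. The 5 libraries of run 2 lay between 285 and 511 CPM whatever their group, below all 12 other libraries except Dnmt3a KO 1 (488 CPM), and the 8 of run 3 lay between 520.4 and 1406 CPM. Group means were 662 ± 274 CPM in Asxl1 KO, 431 ± 166 CPM in Dnmt3a KO, 867 ± 490 CPM in Tet2 KO and 593 ± 84.1 CPM in Rosa KO (SD, n = 4, 4, 4 and 5). In the order Tet2 KO, Asxl1 KO, Rosa KO, Dnmt3a KO, neighbouring groups overlapped.

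**Figure D1:**
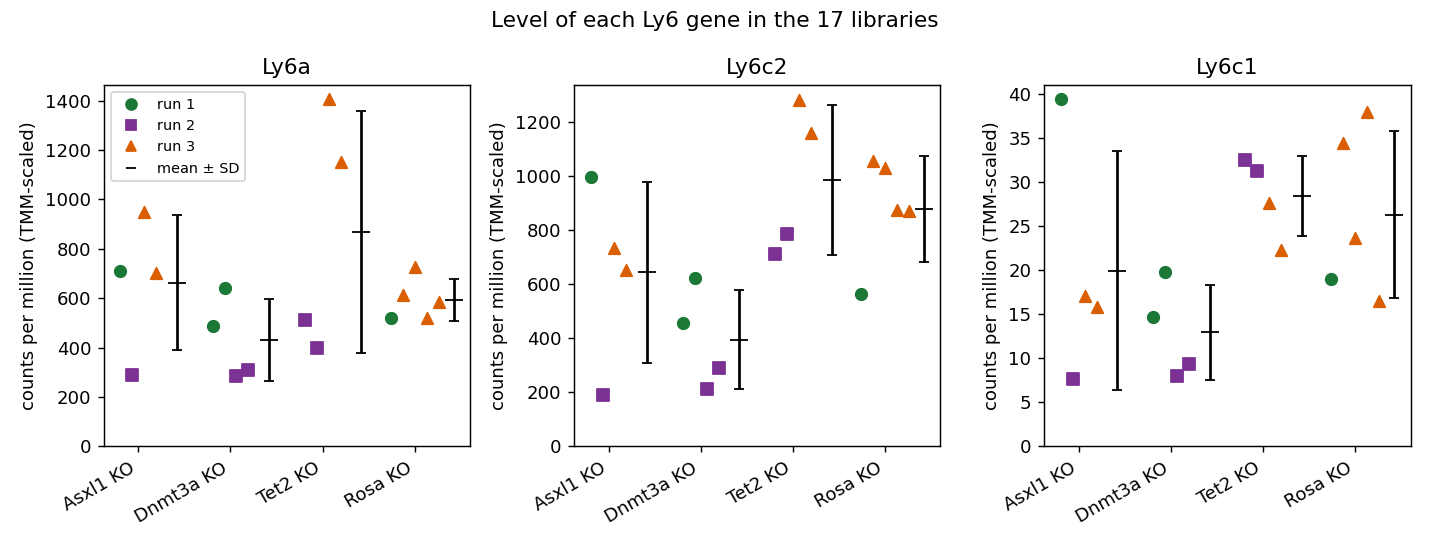
Level of Ly6a, Ly6c2 and Ly6c1 in each library, in TMM-scaled CPM, by group; symbols give the run, and the bar is the mean ± SD of 4 libraries, or of 5 for Rosa KO. Run 2 libraries sit low for Ly6a, between 285 and 511 CPM, and for Ly6c2 the run 2 libraries of Tet2 KO stand above those of Asxl1 KO and Dnmt3a KO.

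Ly6a rose in Tet2 KO against Rosa KO once run was accounted for. The log2 fold change was 1.01 ± 0.15 (SE), a 2.01-fold higher level, with an adjusted p of 0.000548 in edgeR's quasi-likelihood test with group and run as terms, adjusted by Benjamini-Hochberg over the tested genes. Of those genes, 1.47% passed in this comparison (204 of 13881). The groups overlapped over all libraries, because Tet2 KO 1 and 2 of run 2 lay below all 5 Rosa KO libraries and run 2 held no Rosa KO library. Within run 3, which alone held both groups, the 2 Tet2 KO libraries (1406 and 1153 CPM) did not overlap the 4 Rosa KO libraries (520.4 to 725 CPM), and the log2 fold change was 1.07 ± 0.15 (adjusted p = 0.000433, edgeR, with 2.9% of genes passing in that run). Without the run term the log2 fold change was 0.55 ± 0.34 and did not pass (adjusted p = 1).

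In the other knockouts Ly6a did not pass against Rosa KO. The log2 fold change was 0.42 ± 0.15 in Asxl1 KO (adjusted p = 0.142, with 1.64% of genes passing) and 0.28 ± 0.17 in Dnmt3a KO (0.736, with 0.216% passing). Asxl1 KO lay higher than Rosa KO in both shared runs, with log2 fold changes of 0.43 within run 3 and 0.44 within run 1. Between knockouts, Ly6a had log2 fold changes of −0.59 ± 0.15 in Asxl1 KO against Tet2 KO (adjusted p = 0.0959) and −0.73 ± 0.17 in Dnmt3a KO against Tet2 KO (0.102). With DESeq2 these differences passed, at −0.58 (adjusted p = 0.0387, with 1.28% of genes passing) and −0.73 (0.016, with 0.519% passing). For Asxl1 KO against Dnmt3a KO the log2 fold change was 0.14 ± 0.16 (adjusted p = 0.791). In edgeR 0.562%, 0.0937% and 0.353% of the tested genes passed in Asxl1 KO against Tet2 KO, Dnmt3a KO against Tet2 KO and Asxl1 KO against Dnmt3a KO.

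The level of Ly6a went with that of the ribosomal protein genes, library by library. The 5 genes most like it in log2 CPM over the 17 libraries were Rpl31, Naca, Rpl22l1, Cd52 and Tbca, with Pearson r between 0.945 and 0.962 and between 0.853 and 0.920 after run means were removed, out of 9611 genes ranked. Rpl31 encodes a protein of the large ribosomal subunit, Rpl22l1 a paralog of another, Naca a chaperone at the ribosome's exit, Tbca a tubulin folding cofactor and Cd52 a small GPI-anchored surface peptide. Over 81 ribosomal protein genes, a list chosen after this was seen, the mean log2 CPM had an r of 0.95 with Ly6a (0.88 with run means removed), 0.78 with Ly6c2 (0.47) and 0.51 with Ly6c1 (0.31). Library composition and TMM scaling are shared by all of these values, so the r values are descriptions.

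Ribosomal protein genes also moved with the comparison in which Ly6a rose. Their summed level within run 3 was 93810 to 100700 CPM in Tet2 KO, 79990 to 95700 CPM in Asxl1 KO and 54070 to 76000 CPM in Rosa KO, and within run 2 it was 34510 CPM in Asxl1 KO, 34910 to 43310 CPM in Dnmt3a KO and 41570 to 51390 CPM in Tet2 KO. Of the 81, 35 rose and 0 fell in Tet2 KO against Rosa KO, with a median log2 fold change of 0.59, where the median of all tested genes was −0.02. In Asxl1 KO 6 rose and 0 fell, and in Dnmt3a KO 0 passed, with medians of 0.37 and 0.33. Of all tested genes, 1.47% passed in Tet2 KO, 1.64% in Asxl1 KO and 0.216% in Dnmt3a KO against Rosa KO. With the mean of these genes as a covariate beside run, an alternative chosen after the values were seen, the log2 fold change of Ly6a in Tet2 KO was 0.49 ± 0.23 and did not pass (adjusted p = 0.89), and in Asxl1 KO and Dnmt3a KO it was 0.11 and 0.00. Ly6a and the ribosomal protein genes both separated Tet2 KO from Rosa KO within run 3, so the covariate takes up part of the group difference by construction.

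**Figure D2:**
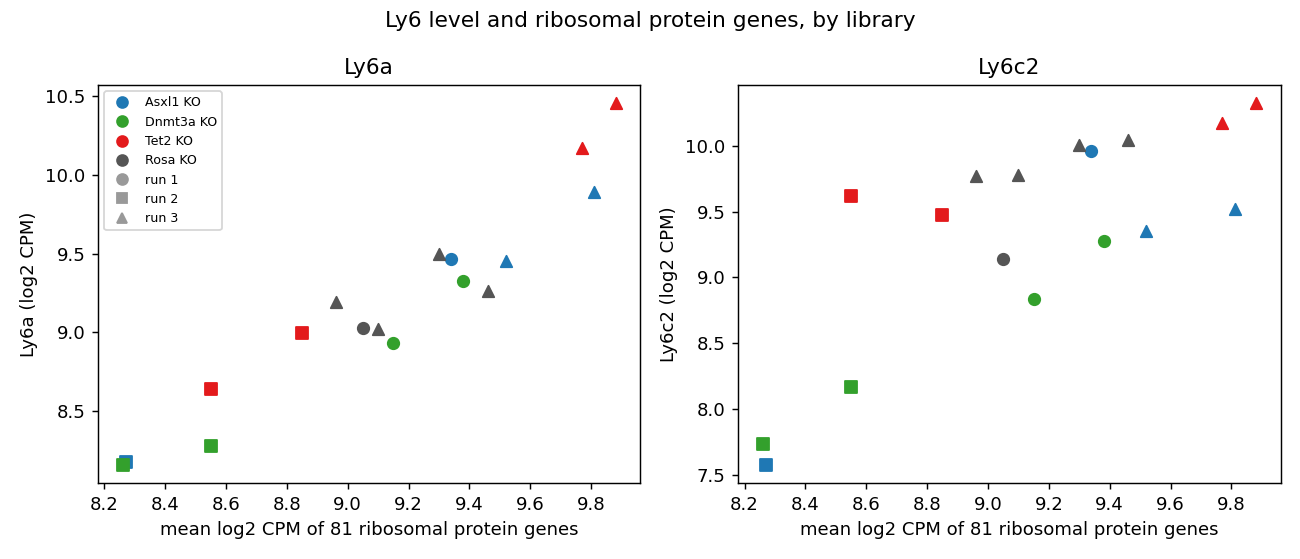
Level of Ly6a (left) and Ly6c2 (right) in log2 CPM against the mean log2 CPM of 81 ribosomal protein genes, 1 point per library; colour gives the group and symbol the run. Ly6a follows the ribosomal protein genes over all groups and runs (r = 0.95), with the 2 Tet2 KO libraries of run 3 at the top right, while at a given ribosomal level Ly6c2 is spread more widely (r = 0.78).

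By group mean, Ly6c2 was lowest in Dnmt3a KO and highest in Tet2 KO, and the difference between these knockouts passed the test. It had 996, 190.4, 733 and 654 CPM in Asxl1 KO 1 to 4 and 458, 621, 213 and 288 CPM in Dnmt3a KO 1 to 4. The values were 710.5, 787, 1282 and 1157 CPM in libraries 1 to 4 of Tet2 KO, against 564, 1057, 1028, 876 and 872 CPM in Rosa KO 1 to 5. All 4 Dnmt3a KO libraries lay below all 4 Tet2 KO libraries, while both groups overlapped Rosa KO. Group means were 643 ± 335 CPM in Asxl1 KO, 395 ± 182 CPM in Dnmt3a KO, 984 ± 278 CPM in Tet2 KO and 879 ± 196 CPM in Rosa KO (SD, n = 4, 4, 4 and 5). In the order Tet2 KO, Rosa KO, Asxl1 KO, Dnmt3a KO, neighbouring groups overlapped.

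In Dnmt3a KO against Tet2 KO, Ly6c2 fell by 1.40 ± 0.25 on the log2 scale (adjusted p = 0.0237, edgeR, with 0.0937% of genes passing), and it ranked 8 by p among the tested genes of that comparison. Within run 2, which alone held Dnmt3a KO and Tet2 KO together, Dnmt3a KO (213 and 288 CPM) lay below Tet2 KO (710.5 and 787 CPM), with a log2 fold change of −1.56 ± 0.24 (adjusted p = 0.00713, with 0.0813% of genes passing). The call rested on few libraries: it was lost without any 1 of the Dnmt3a KO libraries or of Tet2 KO 1 and 2 (adjusted p of 0.0536 to 0.272). The call was also lost without Asxl1 KO 3 and 4 together (0.123), the libraries with counts for the most genes. It was lost as well with no run term (0.409), with the ribosomal covariate (0.294) and with a block on replicate number (0.851). Its direction was the same in all of these, with log2 fold changes of −1.19 to −1.53.

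Ly6c2 was also lower in Asxl1 KO than in Tet2 KO in both runs that held them, although the fit over all libraries put the difference at the threshold. The log2 fold change over all libraries was −1.05 ± 0.24 (adjusted p = 0.0506, edgeR). Within run 3 Asxl1 KO had 733 and 654 CPM and Tet2 KO had 1282 and 1157 CPM, a log2 fold change of −0.82 ± 0.15 (adjusted p = 0.00605, with 1.14% of genes passing). Within run 2 the single Asxl1 KO library had 190.4 CPM and the Tet2 KO libraries had 710.5 and 787 CPM, a log2 fold change of −1.94 ± 0.32 (adjusted p = 0.0226, with 0.163% of genes passing). The lone library is assumed there to vary like the other groups.

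Against Rosa KO none of the knockouts passed for Ly6c2. The log2 fold changes were −0.32 ± 0.23 in Asxl1 KO (adjusted p = 0.536), −0.67 ± 0.27 in Dnmt3a KO (0.523) and 0.73 ± 0.24 in Tet2 KO (0.163). For Tet2 KO the difference passed with no filter on low counts (0.73, adjusted p = 0.00125, with 1.78% of genes passing) and without Asxl1 KO 1 (0.73, 0.0349, with 2.53% passing). Within run 3 it was 0.35 ± 0.13 (0.183). For Asxl1 KO the direction differed between runs: the log2 fold change was −0.47 ± 0.13 within run 3 (2 against 4 libraries, adjusted p = 0.0515, with 4.42% of genes passing) and 0.81 ± 0.24 within run 1 (1 library each, 0.075), where Asxl1 KO 1 had 996 CPM and Rosa KO 1 had 564 CPM. In Dnmt3a KO against Rosa KO, which share run 1 alone, the within-run value was −0.06 ± 0.20. In Asxl1 KO against Dnmt3a KO the log2 fold change was 0.35 ± 0.24 (0.631), with 0.87 within run 1 (1 against 2 libraries, with 9.51% of genes passing) and −0.38 within run 2.

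Ly6c1, the minor Ly6c gene here, ran in the same order of knockouts as Ly6c2 but passed no test. It had 39.4, 7.62, 17.1 and 15.8 CPM in Asxl1 KO 1 to 4 and 14.7, 19.8, 7.95 and 9.31 CPM in Dnmt3a KO 1 to 4. The values were 32.5, 31.3, 27.7 and 22.4 CPM in libraries 1 to 4 of Tet2 KO, against 19.0, 34.5, 23.7, 38.0 and 16.5 CPM in Rosa KO 1 to 5. All 4 Dnmt3a KO libraries lay below all 4 Tet2 KO libraries, as for Ly6c2, and overlapped Rosa KO. The log2 fold changes against Rosa KO were −0.56 ± 0.40 in Asxl1 KO (adjusted p = 0.535), −1.19 ± 0.48 in Dnmt3a KO (0.496) and 0.38 ± 0.42 in Tet2 KO (0.810). Within run 1, the only run that Dnmt3a KO shares with Rosa KO, the value in Dnmt3a KO was −0.135. Within run 3 it was −0.17 in Tet2 KO and −0.78 in Asxl1 KO, while Asxl1 KO had 1.04 within run 1. In Dnmt3a KO against Tet2 KO the log2 fold change was −1.57 ± 0.43 (0.293), in Asxl1 KO against Tet2 KO −0.94 ± 0.42 (0.635) and in Asxl1 KO against Dnmt3a KO 0.63 ± 0.42 (0.598).

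**Figure D3:**
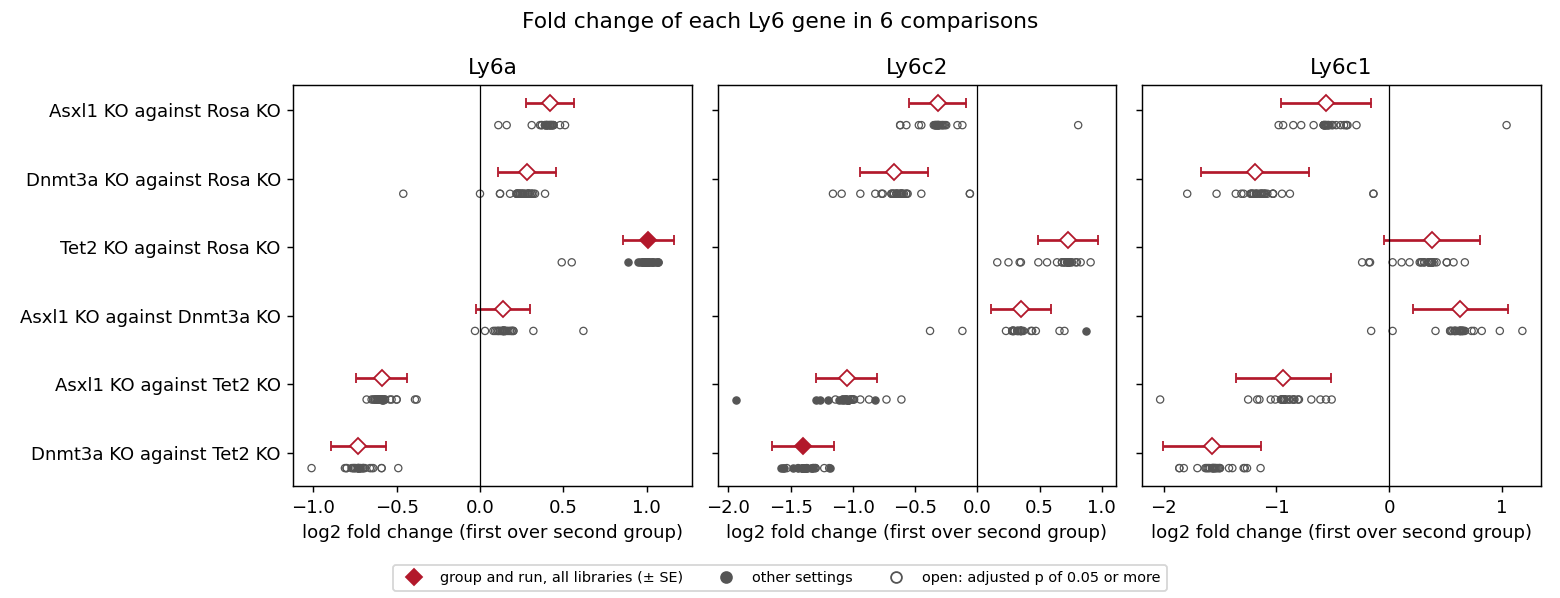
Log2 fold change of each gene in the 6 comparisons, first group over second; diamonds are the fit with group and run over all libraries with its SE, small circles the other settings, and filled symbols have an adjusted p under 0.05. Ly6a passes in Tet2 KO against Rosa KO (1.01) and Ly6c2 in Dnmt3a KO against Tet2 KO (−1.40).

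Since the Ly6c genes can share reads, their counts were also summed into 1 row. The sum fell by 1.41 on the log2 scale in Dnmt3a KO against Tet2 KO (adjusted p = 0.0237, edgeR), where Dnmt3a KO had 408 ± 188 CPM and Tet2 KO 1013 ± 275 CPM (SD, n = 4 each). The sum did not pass in any of the other 5 comparisons. Ly6c1 made up 1.85 to 4.37% of the Ly6c1 and Ly6c2 counts in the 17 libraries. The share was 3.07 ± 0.873% in Asxl1 KO, 3.24 ± 0.246% in Dnmt3a KO and 3.05 ± 1.23% in Tet2 KO, against 2.94 ± 0.907% in Rosa KO (SD, n = 4, 4, 4 and 5). The differences from Rosa KO, of 0.136, 0.298 and 0.114 percentage points, were smaller than the spread between libraries in an exact two-sided permutation test (p = 0.825, 0.532 and 0.889, each adjusted over the 3 comparisons to 0.889), which could reach a p of 0.00794.

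The share of Ly6c1 in single libraries spread within groups. In Rosa KO of run 3 it was 4.16% in Rosa KO 4 (Wilson 95% interval 3.96 to 4.36%, from 38972 counts), against 1.85% in Rosa KO 5 (1.54 to 2.23%, from 5880 counts). The Tet2 KO libraries of run 2 were at 4.37 and 3.82% and those of run 3 at 2.11 and 1.90%. These intervals cover counting error only. Within run 3 the share was 2.28 and 2.36% in Asxl1 KO and 2.11 and 1.90% in Tet2 KO, inside the range of Rosa KO (1.85 to 4.16%).

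Ly6c2 relative to Ly6a, a ratio looked at after the values were seen and given without a test, separated knockout from Rosa KO libraries within run 3. The ratio of Ly6c2 to Ly6a counts there was 0.772 and 0.931 in Asxl1 KO 3 and 4 and 0.912 and 1.00 in Tet2 KO 3 and 4, against 1.72, 1.42, 1.68 and 1.49 in Rosa KO 2 to 5. It was 0.939 and 0.970 in Dnmt3a KO 1 and 2 and 0.746 and 0.927 in Dnmt3a KO 3 and 4. In run 1 the order did not hold for Asxl1 KO, as Asxl1 KO 1 had 1.41 and Rosa KO 1 had 1.08. Dnmt3a KO 1 and 2, of the same run, lay below Rosa KO 1. In run 2, which held no Rosa KO library, Tet2 KO 1 and 2 had 1.39 and 1.98. Over all libraries the ratio was 0.942 ± 0.329 in Asxl1 KO, 0.895 ± 0.101 in Dnmt3a KO and 1.32 ± 0.484 in Tet2 KO, against 1.48 ± 0.256 in Rosa KO (SD, n = 4, 4, 4 and 5).

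**Figure D4:**
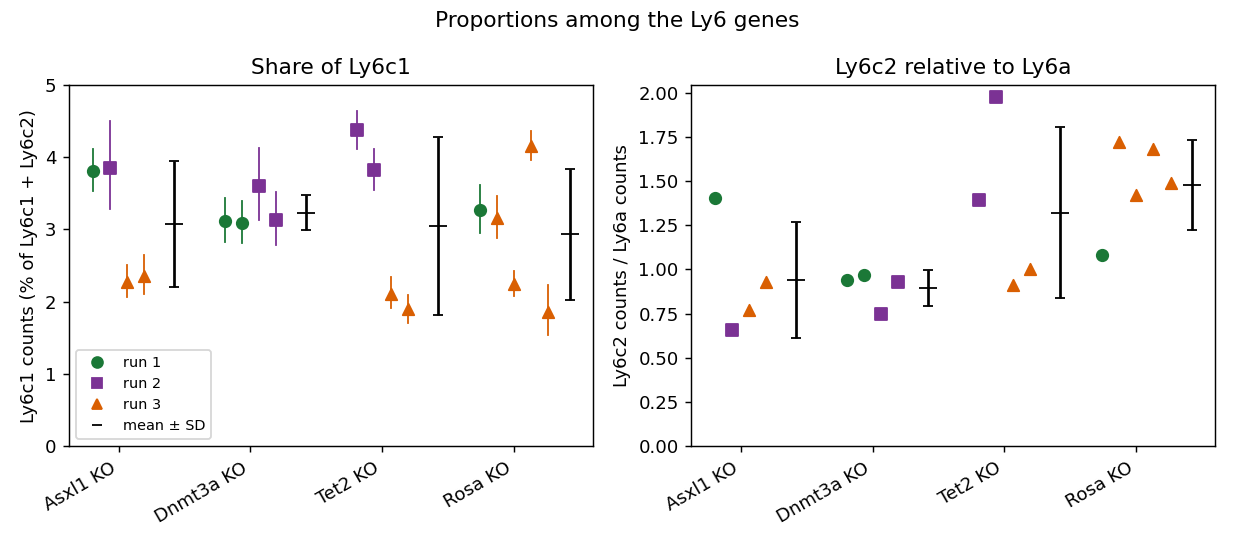
Share of Ly6c1 among Ly6c1 and Ly6c2 counts in percent (left, thin lines are Wilson 95% intervals) and ratio of Ly6c2 to Ly6a counts (right) in each library by group; symbols give the run and the black bar the mean ± SD. Group means of the share lie between 2.94 and 3.24%, and within run 3 the ratio is 0.772 to 1.00 in the knockouts and 1.42 to 1.72 in Rosa KO.

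Across the 17 libraries the 3 genes tended to be high together. Pearson's r of log2 CPM was 0.83 for Ly6a and Ly6c2 (permutation p = 2e-05, Spearman's rho 0.77, p = 0.00053), 0.86 for Ly6c1 and Ly6c2 (p = 2e-05, rho 0.76, p = 0.00058) and 0.54 for Ly6a and Ly6c1 (p = 0.0265, rho 0.43, p = 0.0877). Adjusted over the 3 pairs by Benjamini-Hochberg, the p of Pearson's r was 3e-05, 3e-05 and 0.0265 and that of rho 0.00087, 0.00087 and 0.0877. The permutations shuffled the libraries across groups and runs, so these p-values take no account of shifts between groups or runs. The part of shared reads in the r of the Ly6c pair was not tested. Without the 2 libraries farthest from the median, r was 0.77, 0.73 and 0.42. With run means removed it was 0.60, 0.91 and 0.37, and within run 3 alone (8 libraries) 0.48, 0.56 and −0.15. The pairing of Ly6a with Ly6c1 thus did not hold within run 3, and no r was computed within runs 1 and 2, which hold 4 and 5 libraries.

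The genes most like Ly6c2 in log2 CPM were Eif5a, Cfl1, Trappc1, Tppp3 and Ywhaq (r of 0.842 to 0.868, and 0.700 to 0.844 with run means removed). Eif5a encodes a translation factor, Cfl1 the actin-severing protein cofilin and Ywhaq a 14-3-3 protein. For Ly6c1 they were Ywhaq, Chchd3, Smpd1, Tppp3 and Ppp1ccb (r of 0.763 to 0.820, and 0.706 to 0.783 with run means removed). None of these 8 genes passed against Rosa KO in any knockout. The share of all tested genes passing there was 1.64% in Asxl1 KO, 0.216% in Dnmt3a KO and 1.47% in Tet2 KO.

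The rest of the Ly6 family was mostly silent or low in these cells. Of 37 other family genes in the tables, 13 passed the filter on low counts: Ly6e, Ly6i, Ly6g, Ly6d, Ly6k, Ly6m, Lynx1, Slurp1, Ly6g5b, Ly6g6c, Lypd6b, Cd59a and Plaur. Ly6e, a GPI-anchored member that is induced by interferon, was at a level like that of Ly6a and was the only family gene of the 13 to pass, in Tet2 KO against Rosa KO, with a log2 fold change of 0.72 ± 0.17 (adjusted p = 0.0344). Ly6e averaged 781 ± 424 CPM in Asxl1 KO, 772 ± 331 CPM in Dnmt3a KO, 733 ± 298 CPM in Tet2 KO and 610.3 ± 170 CPM in Rosa KO (SD, n = 4, 4, 4 and 5), and the groups overlapped. The median log2 fold change of the 13 was −0.64 in Asxl1 KO, 0.60 in Dnmt3a KO and −0.24 in Tet2 KO against Rosa KO, where the median of all tested genes was 0.00, 0.00 and −0.02, and most of these genes had few counts. Of 28 other genes within 500 kb of a member, 11 passed the filter, 1 rose in Tet2 KO, again Ly6e, and 0 passed in Asxl1 KO or Dnmt3a KO. Beside these family and neighbour counts, 1.64%, 0.216% and 1.47% of all tested genes passed in Asxl1 KO, Dnmt3a KO and Tet2 KO.

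Counts over the following lists stand against shares of 1.64%, 0.216% and 1.47% of all tested genes passing in Asxl1 KO, Dnmt3a KO and Tet2 KO against Rosa KO. Of 27 tested genes that build the GPI anchor, 1 fell in Asxl1 KO (Dpm1, a subunit of the dolichol-phosphate mannose synthase, −1.36 ± 0.36, adjusted p = 0.0484) and 0 passed in Dnmt3a KO or Tet2 KO, with medians of 0.01, 0.16 and 0.03. Of 12 other GPI-anchored proteins of T cells, 2 rose in Asxl1 KO, the ADP-ribosyltransferase gene Art2b (0.75 ± 0.19, adjusted p = 0.0472) and Bst2, which encodes tetherin (0.95 ± 0.23, 0.0303). In Tet2 KO 2 rose, Bst2 (1.06 ± 0.23, 0.0223) and Cd52 (0.70 ± 0.16, 0.0244), and in Dnmt3a KO 0 passed.

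Among 49 interferon response genes, 2 rose in Asxl1 KO, 0 passed in Dnmt3a KO and 4 rose in Tet2 KO (against 1.64%, 0.216% and 1.47% of all tested genes passing), with medians of 0.16, 0.03 and 0.15. Those of Tet2 KO were Ifi27l2a (1.41 ± 0.18, adjusted p = 0.000101), Bst2, Oas3 (0.92 ± 0.22, 0.0305) and Oas1a (0.90 ± 0.23, 0.0454), the last 2 encoding enzymes that sense double-stranded RNA, and those of Asxl1 KO were Bst2 and Ifi27l2a (0.79 ± 0.18, 0.0178).

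Other genes of T cell memory and effector state passed against Rosa KO, where the shares of all tested genes passing were 1.64% in Asxl1 KO, 0.216% in Dnmt3a KO and 1.47% in Tet2 KO. Of 16 memory and naive genes, 2 rose and 1 fell in Asxl1 KO, 1 rose in Dnmt3a KO and 2 rose and 1 fell in Tet2 KO. Tcf7, which encodes the factor TCF1 of memory cells, rose in all 3, by 1.79 to 1.95, and the receptor gene Il7r rose in Tet2 KO (2.23 ± 0.40, adjusted p = 0.0108). Lef1, which encodes a factor related to TCF1, fell in Asxl1 KO (−1.11 ± 0.29, 0.0484), and Bcl2, a survival gene, fell in Tet2 KO (−0.80 ± 0.18, 0.027). Of 27 effector and activation genes, 2 rose and 8 fell in Asxl1 KO, 6 fell in Dnmt3a KO, and 2 rose and 4 fell in Tet2 KO, with medians of −0.11, −0.56 and −0.20. Zeb2 and S1pr5, genes of terminal effector cells, fell in all 3 knockouts, Zeb2 by 2.27, 1.69 and 1.67 and S1pr5 by 2.04, 2.14 and 1.80 in Asxl1 KO, Dnmt3a KO and Tet2 KO. Klrg1, a receptor gene of the same cells, also fell in all 3, by 1.69, 1.77 and 1.27. The granzyme gene Gzma fell in Asxl1 KO (−1.81 ± 0.17, adjusted p = 4.5e-07) and Dnmt3a KO (−1.19 ± 0.19, 0.0019) and had −0.20 ± 0.17 in Tet2 KO (0.739). The genes that rose, named after their values were seen, were the chemokine receptor gene Cxcr3 in Asxl1 KO and Tet2 KO (1.40 and 1.23), Eomes, a T-box factor gene, in Asxl1 KO (1.15), and the integrin gene Itgb1 in Tet2 KO (0.69).

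Because Ly6C also marks monocytes, markers of other cells stand here beside the Ly6c2 result. The summed level of 20 monocyte and macrophage genes was 1577 to 2071 CPM in Asxl1 KO, 1500 to 2524 CPM in Dnmt3a KO and 1849 to 2546 CPM in Tet2 KO, against 1782 to 2748 CPM in Rosa KO, and 0 of the 20 were at 0 in all libraries. Of the 20, 1 fell in Dnmt3a KO against Tet2 KO (0.0937% of all tested genes passed), Ccr2, which effector T cells also express. Against Rosa KO, Ccr2 rose in Tet2 KO (1.11 ± 0.16, adjusted p = 0.00044, edgeR). Itgam fell in Asxl1 KO, Dnmt3a KO and Tet2 KO against Rosa KO, with log2 fold changes of −1.32, −1.36 and −1.33. Tet2 KO 2 was lowest of the 17 libraries for the monocyte genes Lyz2 and Csf1r (12.7 and 5.65 CPM, a pair named after their values were seen) and for the sum of 18 B cell genes (257 CPM), but not for the sum of the 20 monocyte and macrophage genes (1849 CPM), and Ly6c2 stood there at 787 CPM. In Rosa KO 1, with the highest Lyz2 level (762 CPM), Ly6c2 stood at 564 CPM. Tet2 KO 2 and Rosa KO 1 differ in both group and run, and the group and run means of Ly6c2 differed too. Which cells the Ly6c2 RNA came from was not tested. The monocyte list, used next as a covariate, holds Ccr2 and Itgam, which differed between groups. A covariate made from it can therefore take up part of a group difference. With the B cell and monocyte lists as covariates beside run, the log2 fold change of Ly6c2 in Dnmt3a KO against Tet2 KO was −1.33 ± 0.24 (adjusted p = 0.0309) and that of Ly6a in Tet2 KO against Rosa KO was 1.00 ± 0.14 (0.00028).

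The 8 CD4 T cell genes went both ways in Dnmt3a KO against Rosa KO, and the largest difference was that of Cd4, the defining gene. It was at 52.8 to 99.5 CPM in Dnmt3a KO, 4.41 to 19.2 CPM in Asxl1 KO and 0.0905 to 13.9 CPM in Tet2 KO, against 2.87 to 28.1 CPM in Rosa KO, and in Dnmt3a KO against Rosa KO its log2 fold change of 2.93 ± 0.96 did not pass (adjusted p = 0.398, edgeR). In the same comparison Foxp3, Ikzf2, Cxcr5 and Ctla4 had log2 fold changes of 0.99, 1.03, 0.95 and 0.27. Zbtb7b, Cd40lg and Il2ra had −0.23, −0.26 and −0.83. The 8 genes had a median log2 fold change of 0.61 in Dnmt3a KO against Rosa KO and 0.51 in Dnmt3a KO against Tet2 KO. Of them 0 passed in either comparison, where 0.216% and 0.0937% of all tested genes passed. The part of these 8 genes in the Ly6c2 difference was not tested.

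The 11 NK cell genes, several of which effector CD8 T cells share, summed to 1203 to 1731 CPM in Asxl1 KO, 1222 to 2099 CPM in Dnmt3a KO and 2147 to 3345 CPM in Tet2 KO, against 2909 to 3867 CPM in Rosa KO. Gzma was the largest single part of this sum, with a mean of 1486 CPM over the 17 libraries and 642 CPM in Asxl1 KO. Against Rosa KO, 4 fell and 1 rose in Asxl1 KO, 4 fell in Dnmt3a KO and 3 fell in Tet2 KO (1.64%, 0.216% and 1.47% of all tested genes passed). In Dnmt3a KO against Tet2 KO 2 fell, Klrk1 and Gzma (0.0937% passed). The part of these genes in the Ly6c2 differences was not tested. The 18 B cell genes summed to 1861 to 3085 CPM in Asxl1 KO, 1854 to 5445 CPM in Dnmt3a KO and 257 to 8027 CPM in Tet2 KO, against 1736 to 7357 CPM in Rosa KO. The neutrophil gene Ly6g, a paralog of the Ly6c genes, was at 0 in 3 libraries and at most 6.33 CPM, and the 14 neutrophil genes summed to 4.52 to 459 CPM. The 12 genes of endothelial and stromal cells, which also carry Ly6a or Ly6c1, summed to 45.0 to 104 CPM in Asxl1 KO, 59.0 to 87.9 CPM in Dnmt3a KO and 55.6 to 94.4 CPM in Tet2 KO, against 36.9 to 77.1 CPM in Rosa KO. Nearly all of this sum was Pecam1, with a mean of 62.3 CPM over the 17 libraries. The next highest gene, Vwf, had 2.71 CPM, and 5 of the 12 passed the filter on low counts.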

How the data were processed

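RNA was isolated with a Direct-zol kit and libraries were made with a TruSeq stranded total RNA kit, per the labels' protocols. The authors deposited 1 table of raw counts per gene for each of 17 libraries; mm10, STAR 2.5.3a and DESeq2 1.26.0 are listed, per the submitters' processing notes, while for the counting tool, its use of strand and its treatment of multiply matching reads the entry is: not given in the sources used here. The molecule label reads genomic DNA, although the protocols describe RNA. Counts were tested with edgeR 4.0.16 (TMM, filterByExpr with minimum count 10 and total 15, robust quasi-likelihood F test, 11 residual degrees of freedom) with group and run as terms in R 4.3.3, and the step was tested on simulated data. SE is the log2 fold change divided by the square root of F. P-values were adjusted by Benjamini-Hochberg over 13881 genes, with 0.05 as the threshold. Log2 CPM had a prior count of 2. DESeq2 1.42.0 was an alternative. Depth limits precision most for Ly6c1 (109 counts in its shallowest library). In each of the 28 within-group pairs of libraries the counts differed far beyond sampling noise (chi-square 20.6 to 272 per degree of freedom), so none was counted as a duplicate.

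The members and lists were chosen with earlier results of these data known. Named genes were the members, family genes and neighbours within 500 kb that passed the filter, with values for those past the threshold, up to 4 genes past the threshold per other list by size of change, and the 5 genes most like each member among those with a mean of at least 5 CPM. Lists of plasma, dendritic, CD4 T, CD8 T, erythroid and platelet genes were also counted (closing section). Sequences are from GENCODE M21 and RefSeq.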

Additional observations from a re-analysis of the deposited data

Results flagged for a closer look

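The share of Ly6c1 among Ly6c1 and Ly6c2 counts in Dnmt3a KO 3 was 3.60%, far from the 3.09 to 3.13% of the other Dnmt3a KO libraries relative to the spread of the group. Its Wilson 95% interval, 3.14 to 4.13% from 5413 counts, which covers counting error only, overlapped that of Dnmt3a KO 4 (2.78 to 3.52%). It was 1 of 20 combinations of a group and a measure examined this way, and chance flags about 1 in 20.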

How the results depend on the processing

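Log2 fold changes are given first group over second. Ly6a in Tet2 KO against Rosa KO passed in all alternatives run except no run term (0.55) and the ribosomal protein covariate (0.49), which was chosen after the values were seen; leaving out 1 library gave 0.89 to 1.07. Ly6c2 in Dnmt3a KO against Tet2 KO kept its direction in all alternatives and did not pass with no run term (−1.32), with the ribosomal covariate (−1.19), with a replicate block, without Asxl1 KO 3 and 4 (−1.37) or without any 1 of Dnmt3a KO 1 to 4 and Tet2 KO 1 and 2; leaving out 1 library gave −1.58 to −1.18. The summed Ly6c row had −1.31 with no run term, −1.20 with the covariate and −1.39 without Asxl1 KO 3 and 4, and it missed the threshold without any 1 of the same 6 libraries, Asxl1 KO 3 and Rosa KO 5 (range −1.59 to −1.18). Ly6c2 in Asxl1 KO against Tet2 KO, just short of the threshold over all libraries, passed with the libraries of both groups alone (−1.26), within run 3 (−0.82) and run 2 (−1.94), and with DESeq2 (−1.04), RLE factors (−1.04), upper quartile factors (−1.07), no filter (−1.05), a minimum count of 50 (−1.04) and the B cell and monocyte covariates (−1.04); it also passed without any 1 of Asxl1 KO 1, Dnmt3a KO 4, Tet2 KO 4 and Rosa KO 1 (range −1.30 to −0.73). The summed row passed under the same settings except RLE factors and leaving out Dnmt3a KO 4 (−1.25, −0.81, −1.94, −1.04, −1.06, −1.04, −1.04 and −1.04; −1.30 to −0.72 leaving out 1 library). Ly6a passed with DESeq2 and with no filter in Asxl1 KO against Tet2 KO (−0.58 and −0.59) and Dnmt3a KO against Tet2 KO (−0.73 and −0.72). In Tet2 KO against Rosa KO, Ly6c2 (0.73) and the sum (0.72) passed with no filter and without Asxl1 KO 1; leaving out 1 library gave 0.49 to 0.91 and 0.48 to 0.91.

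Some differences that did not pass changed sign. In Asxl1 KO against Rosa KO, within run 1, Ly6c1 had 1.04, Ly6c2 0.81 and the sum 0.82, while within run 3 the sum passed at −0.47, with 4.42% of genes passing. In Dnmt3a KO against Rosa KO, Ly6a had −0.46 with no run term and 0.00 with the ribosomal covariate. In Tet2 KO against Rosa KO, Ly6c1 had −0.18 with the libraries of both groups alone, −0.17 within run 3 and −0.24 with the ribosomal covariate. In Asxl1 KO against Dnmt3a KO, within run 2, Ly6a had −0.03, Ly6c1 −0.16, Ly6c2 −0.38 and the sum −0.37, while within run 1, with 1 against 2 libraries and 9.51% of genes passing, Ly6c2 (0.87) and the sum (0.88) passed; leaving out 1 library gave −0.12 to 0.66 and −0.11 to 0.67, the low ends without Asxl1 KO 1. The Ly6c1 share against Rosa KO turned sign within run 3 in Asxl1 KO (−0.537 percentage points) and Tet2 KO (−0.85) and within run 1 in Dnmt3a KO (−0.162), and leaving out 1 library gave −0.135 to 0.441 in Asxl1 KO, 0.0274 to 0.603 in Dnmt3a KO and −0.327 to 0.499 in Tet2 KO. The cause of these changes was not tested.

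The labels do not say that equal replicate numbers pair libraries, and only 2 of 24 same-numbered pairs had deviations from their group means that correlated above 0.1, with 4 of 17 libraries correlating best with their own number. With a replicate block added to group and run, Ly6a in Tet2 KO against Rosa KO had 0.98 (adjusted p = 0.00961), and Ly6c2 and the sum in Dnmt3a KO against Tet2 KO had −1.30 and −1.30 (0.851 for both); the block changed no other call of a member. Over all genes, the number passing ran over the alternatives between 23 and 677 in Asxl1 KO against Rosa KO (227 as reported), 0 and 151 in Dnmt3a KO (30) and 23 and 410 in Tet2 KO (204). It ran between 0 and 1301 in Asxl1 KO against Dnmt3a KO (49), 24 and 192 in Asxl1 KO against Tet2 KO (78) and 1 and 72 in Dnmt3a KO against Tet2 KO (13). Depth limits Ly6c1, with 109 to 1620 counts a library, more than Ly6c2. No within-run value exists for Dnmt3a KO against Rosa KO outside run 1 or for Tet2 KO against Rosa KO outside run 3.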

Other observations

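With run means removed, a ranking chosen after the values were seen, the genes most like Ly6c2 were Epsti1, Klrd1, Klrk1, Jtb and Ywhaq (r of 0.844 to 0.878), and those most like Ly6c1 were Klrk1, Lrrc8a, Epsti1, Rmrp and Jtb (0.809 to 0.876). Klrd1 and Klrk1 encode the lectin-like receptors CD94 and NKG2D, which effector CD8 T cells share with NK cells, and Epsti1 is an interferon-stimulated gene. Klrk1 fell in Dnmt3a KO against Rosa KO, with a log2 fold change of −1.18 (adjusted p = 0.0273, edgeR), and had −0.75 in Asxl1 KO (0.0562) and −0.06 in Tet2 KO (0.949). For Ly6a the same ranking gave Mrpl33, Naca, Rps20, Rpl31 and Rpl22l1 (0.897 to 0.936).

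Of the remaining marker lists, CD8 T cell genes had 6 of 14 higher in Asxl1 KO, led by the adaptor gene Lat (log2 fold change 1.33 ± 0.18, adjusted p = 8.63e-05, edgeR), 0 in Dnmt3a KO and 1 higher in Tet2 KO, all against Rosa KO. Of all tested genes, 1.64%, 0.216% and 1.47% passed in Asxl1 KO, Dnmt3a KO and Tet2 KO against Rosa KO. Dendritic cell genes had 1 of 12 higher in Asxl1 KO and in Tet2 KO, which was Bst2 in both. Plasma cell, CD4 T cell and erythroid and platelet genes had 0 past the threshold in any knockout against Rosa KO, with 7, 8 and 9 of them tested.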
